A study of Mus musculus with 115 samples.

Results

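The 8 enzymes described here make, activate or inactivate steroids, and their transcripts were read in liver and in inguinal fat of mice given testosterone, estradiol or neither. They are Cyp17a1, Cyp7b1, Hsd3b5, Hsd11b1, Hsd17b2, Srd5a1, Akr1c6 and Akr1d1, taken by symbol from the probe tables, and they account for 8 of 18120 symbols and 11 of 25697 probes. Hsd11b1 has 4 probes and every other member has 1. All 8 were tested in liver and 5 in fat, where Hsd3b5, Akr1c6 and Akr1d1 were detected in too few arrays.

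RNA was read on 1-colour Illumina BeadChips, with 60 arrays of liver (5 in each of 12 groups) and 55 of inguinal fat (3 to 5 a group). The mice were of the FCG line on a C57BL/6J background, in which Sry, the testis-determining gene, is lost from the Y chromosome (written Y-) and is carried, in part of the animals, as an autosomal transgene. XX and XY- animals lack Sry and form ovaries, while XXSry and XY-Sry animals carry the transgene and form testes. Every animal, controls included, lost its gonads at 75 days of age and received a Silastic capsule on the same occasion, either blank (B), with testosterone (T, 5 mM) or with estradiol (E, 50 µg), for 3 weeks. A gonad difference here is therefore between gonadectomised adults with and without the transgene, and an effect of the former gonad and of the transgene itself cannot be told apart. The question set by the design is how hormone, gonad type and sex chromosomes each bear on transcript levels. The labels do not say that each array is a separate animal, so the p-values measure the spread between arrays, which may be partly technical.

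Steroids are built from cholesterol by cytochromes and hydroxysteroid dehydrogenases, and are then switched between active and inactive forms by dehydrogenases and reductases in the tissues that use or clear them. Liver is the main organ of clearance, and in mouse liver many of these enzymes are known to be sex-biased. In fat, local regeneration of glucocorticoid is the best known of these steps.

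Promoter sequence was at hand in RefSeq (GRCm38.p6) for 5 members, as the 250 bases before the start. The windows of 4 are shown because their genes were called for testosterone in liver. Hsd3b5 (chr3:98645535-98645784, minus strand) rose the most among the members, Srd5a1 (chr13:69611464-69611713, minus strand) rose, and Akr1d1 (chr6:37529923-37530172, plus strand) and Hsd11b1 (chr1:193242361-193242610, minus strand) fell. Capitals mark the motifs found, which are GGGCGG (a GC box) in Srd5a1 and TGACCT, the reverse-strand form of AGGTCA (an estrogen receptor hexamer), in Akr1d1.

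Hsd3b5: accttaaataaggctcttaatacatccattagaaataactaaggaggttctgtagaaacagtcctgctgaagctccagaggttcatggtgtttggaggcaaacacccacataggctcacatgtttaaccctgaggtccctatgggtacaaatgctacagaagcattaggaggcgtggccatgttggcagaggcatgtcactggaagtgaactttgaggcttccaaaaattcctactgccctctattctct
Srd5a1: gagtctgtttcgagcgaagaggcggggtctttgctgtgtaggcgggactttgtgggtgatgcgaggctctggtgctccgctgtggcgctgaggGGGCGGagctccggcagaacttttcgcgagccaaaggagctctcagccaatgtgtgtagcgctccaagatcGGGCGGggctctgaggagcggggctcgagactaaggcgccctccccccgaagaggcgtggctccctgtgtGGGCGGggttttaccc
Akr1d1: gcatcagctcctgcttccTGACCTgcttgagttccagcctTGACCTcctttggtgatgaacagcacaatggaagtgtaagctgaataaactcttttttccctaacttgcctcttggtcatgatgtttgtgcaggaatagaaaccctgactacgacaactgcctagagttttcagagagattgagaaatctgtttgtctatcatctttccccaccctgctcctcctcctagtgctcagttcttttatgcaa
Hsd11b1: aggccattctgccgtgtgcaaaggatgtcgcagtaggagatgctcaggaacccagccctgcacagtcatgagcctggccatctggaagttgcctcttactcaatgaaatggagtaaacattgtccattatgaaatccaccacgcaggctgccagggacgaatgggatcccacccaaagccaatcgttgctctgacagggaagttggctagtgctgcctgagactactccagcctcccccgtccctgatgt

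Both strands were searched for AGAACA (androgen or glucocorticoid receptor hexamer), AGGTCA, TTCNNNGAA (STAT5), GGGCGG and TATAAA, and no matches overlapped. The Hsd3b5 window held none of them, nor did that of Hsd11b1. With positions counted back from the start, Srd5a1 held GGGCGG 3 times, at -157, -86 and -16. Akr1d1 held AGGTCA 2 times, at -232 and -210, and Akr1c6 (chr13:4434093-4434342, plus strand) held TATAAA once, at -164. Of 32851 promoter windows of the same length, 16.1% held AGAACA, 14.0% AGGTCA, 7.02% TTCNNNGAA, 32.7% GGGCGG and 12.4% TATAAA. The windows of Hsd3b5 and Akr1d1 were 45.2% G and C and that of Srd5a1 64.8%, against a median of 52.4% over all windows. A match describes the letters only.

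The arrays had a median raw signal of 124 to 159 in liver and 130 to 230 in fat, and 31.8 to 41.0% and 40.3 to 49.0% of probes were detected (detection p under 0.01). All 10 hepatocyte markers were detected in every liver array. Some arrays stood apart. Liver XY- E array 5 had a Cyp4a12 level of 11.19, inside the testosterone range (10.78 to 12.58) and outside that of the other estradiol arrays (4.58 to 7.69). Liver XY-Sry T array 5 had transcripts of the X and Y chromosomes like those of XX arrays. Liver XX E array 1 had a median correlation of 0.936 with its group. In fat, XX E array 1 has label fields that disagree on the agent and was kept as estradiol, and XY-Sry T array 1 had all 10 hepatocyte markers detected. Results whose call turned on 1 of these arrays are given without it, as are some others. Levels below are log2 normalised signal, a difference of 1 being a doubling, and differences of dim probes are understated because 16 was added before the log.

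Testosterone changed 6 of the 8 members in liver, 3 upward (Hsd3b5, Srd5a1 and Cyp7b1) and 3 downward (Cyp17a1, Akr1d1 and Hsd11b1), where 19.1% of all tested probes were called (limma, adjusted p under 0.05), 8.17% upward and 10.9% downward. Estradiol changed 2 members, Cyp17a1 and Hsd3b5, both upward, where 6.82% of probes were called, 3.55% upward and 3.27% downward. Another scaling, median centring, moved the share of called probes that were higher from 42.8% to 16.5% for testosterone and from 52.1% to 8.55% for estradiol, and added Akr1c6 and Akr1d1 as lower under estradiol. With slide as a block the Hsd3b5 call for estradiol was lost (0.54, adjusted p = 0.451), which left 1 member. The median difference over the 8 members was 0.11 for testosterone and 0.21 for estradiol, beside 0.00 and -0.02 over all tested probes. Both responses were taken against the same 20 blank arrays. With the hormones set against each other directly, 7 members differed (18.4% of probes), and Hsd17b2 was the member that did not pass. In bulk tissue, fewer cells of a type and less RNA per cell cannot be told apart.

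**Figure D1:**
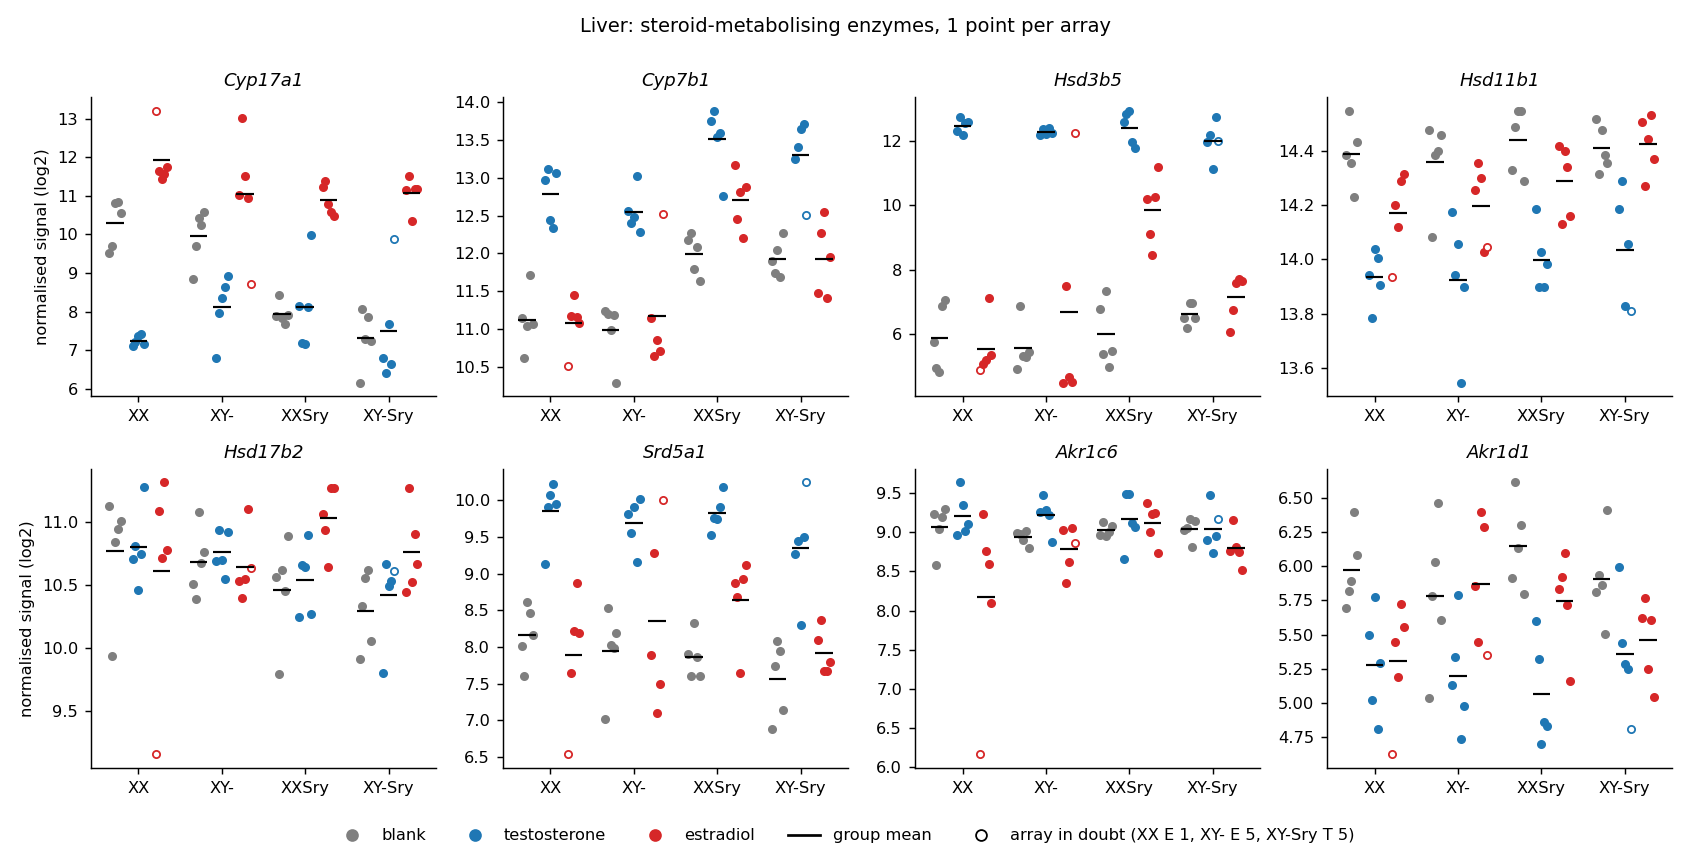
Normalised signal (log2, y axis) of members in liver, 1 point per array, over the 4 genotypes and the 3 capsules, with the group mean as a line. Hsd3b5 in testosterone arrays sits between 11.15 and 12.95, above every blank array.

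Cyp17a1 performs the hydroxylase and lyase steps that lead from progestogens to androgens. In liver it was detected in all 60 arrays. Blank arrays had a lowest, median and highest level of 6.16, 8.64 and 10.85 (mean 8.88 ± 1.42, SD, n = 20), testosterone arrays 6.41, 7.39 and 9.999 (7.75 ± 1.01, SD, n = 20) and estradiol arrays 8.72, 11.21 and 13.21 (11.24 ± 0.93, SD, n = 20). The blank arrays lay in separate ranges by gonad type: those without Sry ran from 8.85 to 10.85 and those with Sry from 6.16 to 8.43. Estradiol arrays were all at or above 8.72 and so overlapped only the blank arrays without Sry. Estradiol raised Cyp17a1 by 2.36 ± 0.26 (SE), or 5.12-fold (limma adjusted p = 3.94e-09), with the same sign in 4 of 4 genotypes. Testosterone lowered it by 1.13 ± 0.26 (SE), or 2.19-fold (adjusted p = 0.000858), with the same sign in only 2 of 4 genotypes.

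The testosterone response of Cyp17a1 differed by gonad type. In XX livers the blank arrays were at 9.51, 9.69, 10.82, 10.85 and 10.57 and the testosterone arrays at 7.10, 7.21, 7.37, 7.42 and 7.17, with no overlap. In XXSry livers the blank arrays were at 7.88, 8.43, 7.85, 7.67 and 7.92 and the testosterone arrays at 8.14, 7.20, 7.15, 8.12 and 9.999, which overlap. The difference was -3.03 in XX (adjusted p = 4.39e-05), -1.83 in XY- (0.0423), 0.17 in XXSry (0.93) and 0.16 in XY-Sry (0.95), and the XY- call was lost when any 1 of 8 arrays was left out. The interaction of testosterone with gonad type was 2.60 ± 0.51 (SE, limma adjusted p = 0.00602), the response being more negative without Sry, and 0.124% of all probes were called in that comparison, in which Cyp17a1 was the 1 member called. It was 2.30 without XY-Sry T array 5 (adjusted p = 0.012) and 2.36 without XXSry T array 5 (0.015), the arrays at 9.88 and 9.999.

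The same pattern read as a gonad difference under each capsule was large under blank and small under hormone. Under blank capsules Cyp17a1 was lower with Sry by -2.48 ± 0.36 (SE, limma adjusted p = 4.77e-06), a 5.58-fold difference. The summed level of liver macrophage markers (7 of 8 detected in at least 1 array) under blank was 10.9 to 11.5 with Sry and 11.6 to 13.01 without, also with no overlap. Over both gonad types its median was 11.6 under blank, 11.1 under testosterone and 12.0 under estradiol. Its part in the Cyp17a1 result was not tested. Under testosterone the difference was 0.11 (adjusted p = 1) and under estradiol -0.50 (0.66). Estradiol raised Cyp17a1 by 2.95 in XXSry (adjusted p = 0.000578) and 3.75 in XY-Sry (1.29e-05), while the values of 1.64 in XX (0.0705) and 1.09 in XY- (0.65) did not pass. The XX value passed when any 1 of 3 arrays of other groups was left out (adjusted p up to 0.0431), XY-Sry T array 5, XY- E array 2 and XY- E array 5. The interaction of estradiol with gonad type was 1.99 ± 0.51 (SE, adjusted p = 0.097), in a comparison that called 0.0795% of probes. It passed with slide as a block (adjusted p = 0.0445) and with both arrays that go against their labels left out (1.69, adjusted p = 0.0475).

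Ordered by mean, Cyp17a1 ran from XX T (7.25 ± 0.13, SD, n = 5 in each group) through XY-Sry B (7.33 ± 0.75), XY-Sry T (7.49 ± 1.42), XXSry B (7.95 ± 0.29), XXSry T (8.12 ± 1.15) and XY- T (8.13 ± 0.82) to XY- B (9.96 ± 0.70), XX B (10.29 ± 0.64), XXSry E (10.90 ± 0.39), XY- E (11.04 ± 1.55), XY-Sry E (11.08 ± 0.43) and XX E (11.93 ± 0.73). Each group overlapped its neighbours in this order. The widest step in the means lies between XY- T and XY- B, and even there the highest XY- T array (8.91) passed the lowest XY- B array (8.85). Adrenal cortex is another tissue that uses steroid cytochromes, and 5 of its 8 markers (Star, Cyp11b1, Cyp21a1, Mc2r and Nr5a1) were detected in no liver array. Of the others, Cyp11b2 and Akr1b7 were each detected in 28 of 60 arrays, Akr1b7 at up to 9.73, and Cyp11a1 in 1. Akr1b7 returns below among the reductases. The summed level ran from 7.57 to 8.13 in blank, 7.53 to 8.08 in testosterone and 7.64 to 9.997 in estradiol arrays. The part of these markers in the Cyp17a1 result was not tested. XX E array 1 had the highest Cyp17a1 level, 13.21, and without it the estradiol difference over genotypes was 2.28 (limma adjusted p = 1.28e-08).

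**Figure D2:**
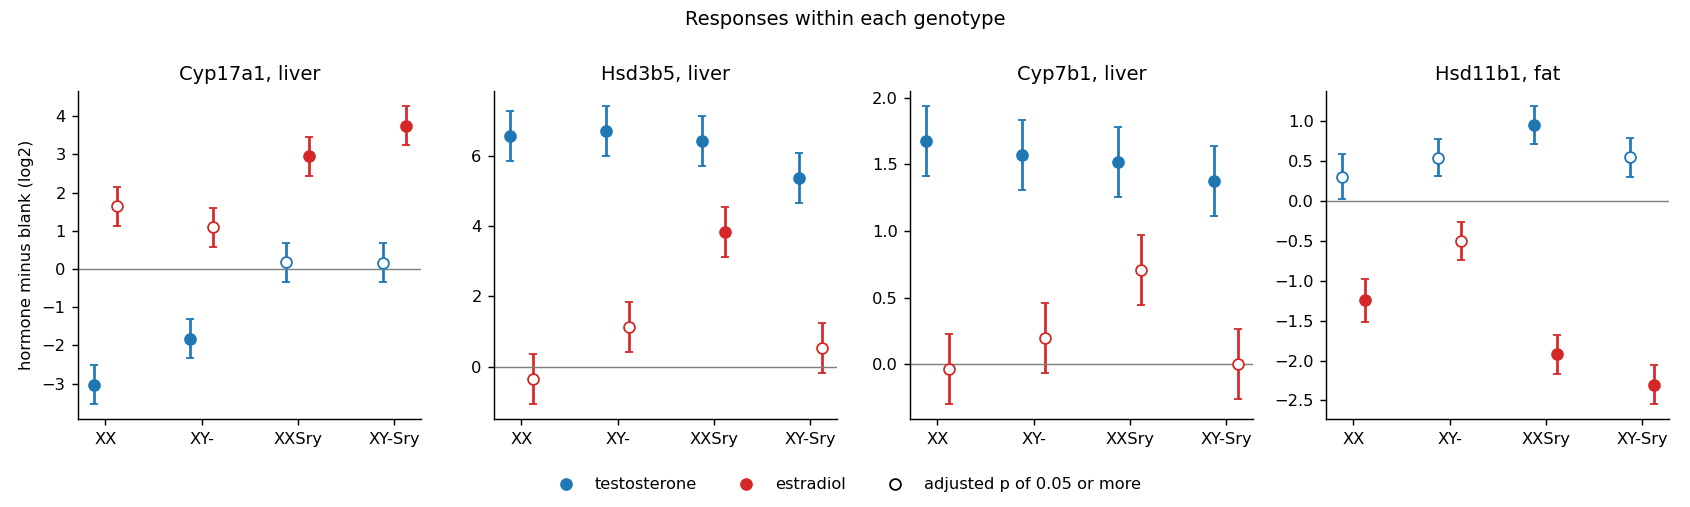
Difference from blank (log2, y axis) of members under testosterone and under estradiol within each of the 4 genotypes of liver and fat, with the standard error of limma as bars. Cyp17a1 under testosterone lies at -3.03 in XX and at 0.16 in XY-Sry.

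Hsd3b5 belongs to the 3-beta-hydroxysteroid dehydrogenase family and is a male-biased liver form that reduces ketosteroids. Its blank level was near the detection limit, at 4.83, 5.98 and 7.36 (lowest, median, highest) with 13 of 20 arrays detected, against 11.15, 12.28 and 12.95 under testosterone with 20 of 20 detected. No testosterone array came near the blank range. The difference was 6.27 ± 0.36 (SE), or 77.4-fold (limma adjusted p = 7.65e-21), and it ran from 5.38 in XY-Sry to 6.71 in XY-, called in each genotype. On the 3 slides that held both capsules it was 5.91 to 6.55.

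Under estradiol Hsd3b5 spread over 4.50, 7.32 and 12.26, and the groups differed. The XXSry arrays were at 10.20, 9.11, 8.47, 10.25 and 11.19, above every blank array, the XY-Sry arrays at 6.09 to 7.72, and the XX arrays at 4.91 to 7.14. The XY- arrays were at 4.50, 7.50, 4.68, 4.52 and 12.26, where the last is array 5, which goes against its label. The estradiol difference over genotypes was 1.28 ± 0.36 (SE, adjusted p = 0.017). It was 0.94 without XY- E array 5 (adjusted p = 0.00902) and 0.54 with slide as a block (0.451), so the call does not hold with slide in the fit. On the 2 slides that held both capsules it was 0.21 and 0.46, as plain means that are not matched for genotype. By genotype only XXSry passed, with 3.85 (adjusted p = 0.00149).

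Under estradiol Hsd3b5 was higher with Sry, where 10 of 10 arrays detected it, than without, where 4 of 10 did, by 2.39 ± 0.50 (SE, limma adjusted p = 0.00195) or 3.09 without XY- E array 5 (1.22e-08). Over capsules the gonad difference was 0.94 (adjusted p = 0.0608) and 1.17 without that array (2.61e-05). It passed when any 1 of 9 arrays, that one included, was left out, and with slide as a block (0.0241). The interaction of estradiol with gonad type was 1.81 (adjusted p = 0.666) with all arrays and 2.51 without it (0.00413), so 1 array decides that call.

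Srd5a1 is steroid 5-alpha-reductase type 1, which turns testosterone into dihydrotestosterone and also starts the clearance of other steroids. Blank arrays lay at 6.88, 7.96 and 8.61, testosterone arrays at 8.30, 9.79 and 10.25, and estradiol arrays at 6.53, 8.14 and 10. Testosterone and blank ranges overlapped only between 8.30 and 8.61. Testosterone raised Srd5a1 by 1.80 ± 0.18 (SE), or 3.48-fold (limma adjusted p = 1.79e-11), by 1.69 in XX, 1.74 in XY-, 1.96 in XXSry and 1.79 in XY-Sry, all called. The estradiol difference of 0.32 ± 0.18 (SE) was not called (adjusted p = 0.325), and testosterone lay above estradiol by 1.48 (5.41e-09). The estradiol array at 10 was in XY- E (median 7.90), the group that holds array 5, which goes against its label. With single arrays left out the estradiol difference ran from 0.22 to 0.40 and was never called.

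Cyp7b1 is an oxysterol and steroid 7-alpha-hydroxylase, known to act on dehydroepiandrosterone and on side-chain oxysterols. Its blank arrays ran from 10.29 to 12.27 and its testosterone arrays from 12.29 to 13.89, so the ranges did not overlap, while estradiol arrays ran from 10.51 to 13.17. Testosterone raised it by 1.53 ± 0.13 (SE), or 2.90-fold (limma adjusted p = 4.92e-14), and by 1.38 to 1.67 in the 4 genotypes, all called. The estradiol difference was 0.22 ± 0.13 (SE, adjusted p = 0.365). Cyp7b1 was also higher with Sry, by 0.95 ± 0.11 (SE, adjusted p = 2.97e-09), with the same sign in 6 of 6 combinations of capsule and sex chromosomes, and 3.4% of probes were called for gonad type.

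Split by capsule, the gonad difference in Cyp7b1 was 0.91 ± 0.19 (SE) under blank (limma adjusted p = 0.0016), 0.74 ± 0.19 under testosterone (0.0859) and 1.19 ± 0.19 under estradiol (1.75e-05), and 1.75%, 0.212% and 2.44% of probes were called in these comparisons. The testosterone value passed with slide as a block (adjusted p = 0.0279), with array weights (0.77, 0.00893), and without XY-Sry T array 5 (0.84, 0.026) or XXSry T array 5 (0.83, 0.0288). It also passed without XY- E array 5 (0.0223), whose level of 12.52 was above the 10.65 to 11.15 of its group. Cyp17a1 and Cyp7b1 were the 2 members called for gonad type over all capsules, and they moved in opposite directions. Under each capsule 2 (blank), 0 (testosterone) and 2 (estradiol) members were called. Under testosterone 502 of all probes had an unadjusted p under 0.05.

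Hsd11b1 is 11-beta-hydroxysteroid dehydrogenase type 1, which regenerates active glucocorticoid from its inactive keto form. It was among the bright probes of liver, with 14.08 to 14.55 in blank, 13.55 to 14.29 in testosterone and 13.94 to 14.53 in estradiol arrays, ranges that overlap. Testosterone lowered it by 0.43 ± 0.06 (SE), or 1.34-fold (limma adjusted p = 6.62e-08), with the same sign in 4 of 4 genotypes. Within genotypes it passed in XX (-0.45), XY- (-0.44) and XXSry (-0.44) and not in XY-Sry (-0.37, adjusted p = 0.0801), and these calls changed when any 1 of 2, 6, 2 and 1 arrays was left out. Its other probes gave -0.25 (adjusted p = 0.0104) and -0.24 (0.0151), and the fourth was detected in 0 of 60 liver arrays. The estradiol difference was -0.13 ± 0.06 (SE, adjusted p = 0.178).

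Akr1d1 is the 5-beta-reductase of steroid clearance and bile acid synthesis. It was dim, detected in 19 of 20 blank, 3 of 20 testosterone and 11 of 20 estradiol arrays, at 5.03 to 6.61, 4.70 to 6.00 and 4.62 to 6.40. Testosterone lowered it by 0.73 ± 0.12 (SE), or 1.66-fold (limma adjusted p = 7.11e-06), with the same sign in 4 of 4 genotypes. In XXSry testosterone arrays it was not detected, and there it was at least 1.56-fold lower than in blank arrays (fitted -1.09, adjusted p = 0.00332). The estradiol difference of -0.36 ± 0.12 (SE) missed the threshold (adjusted p = 0.059). It passed when any 1 of 7 arrays was left out (adjusted p down to 0.0235) and under median centring (-0.49, 0.00893), where the median of all probes was itself shifted to -0.18.

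Hsd17b2 and Akr1c6 were called for neither hormone. Hsd17b2, which oxidises estradiol and testosterone to their keto forms, lay at 9.79 to 11.13 in blank, 9.80 to 11.28 in testosterone and 9.15 to 11.31 in estradiol arrays, with differences of 0.08 ± 0.12 (SE, limma adjusted p = 0.723) and 0.21 ± 0.12 (0.337). Its level of 9.15 was in XX E array 1. With single arrays left out its estradiol difference ran from 0.16 to 0.30 and was never called. Akr1c6, an aldo-keto reductase with 17-beta-hydroxysteroid dehydrogenase activity, lay at 8.58 to 9.29, 8.66 to 9.64 and 6.17 to 9.37, with differences of 0.14 ± 0.13 (SE, adjusted p = 0.483) and -0.30 ± 0.13 (0.158). Testosterone arrays were above estradiol arrays in Akr1c6 by 0.44 ± 0.13 (SE, adjusted p = 0.00917), and by 0.32 to 0.51 with single arrays left out, called each time. Its estradiol difference in XX, -0.90 (adjusted p = 0.0385), was lost when any 1 of 6 arrays was left out, and was -0.40 (0.431) without XX E array 1, which lay at 6.17 beside 8.10 to 9.22 in the others.

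**Figure D3:**
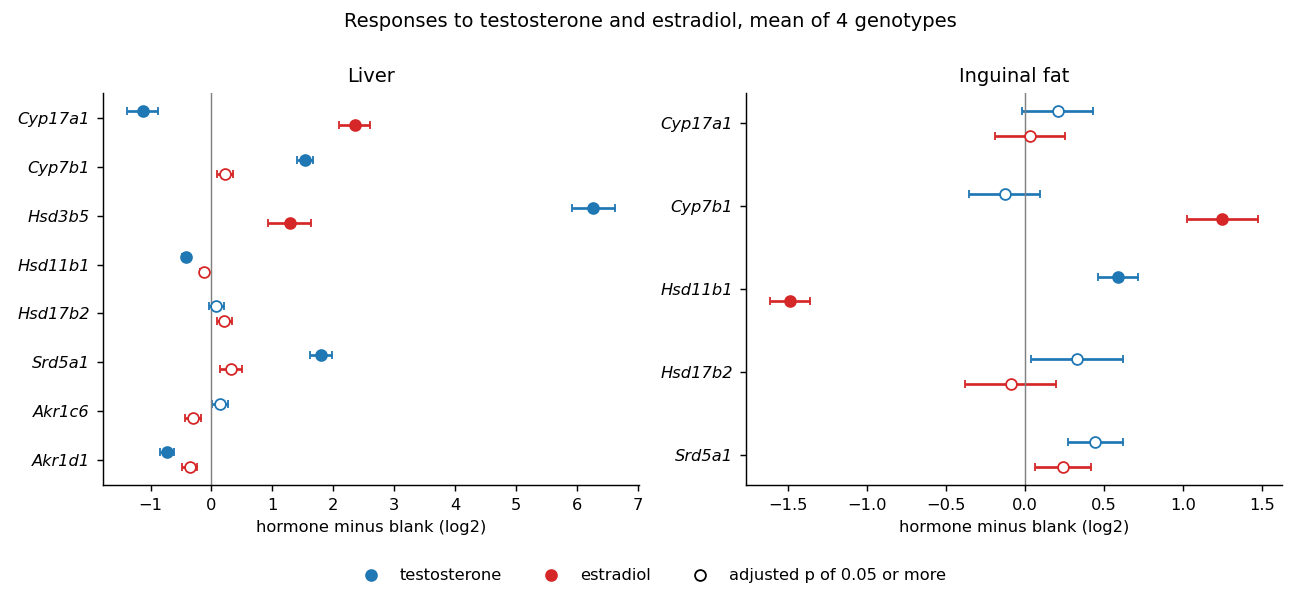
Testosterone minus blank and estradiol minus blank (log2 difference, with the standard error of limma as bars) for each tested member, side by side in liver and in fat, filled where called. In liver Hsd3b5 lies at 6.27 for testosterone and Cyp17a1 at 2.36 for estradiol.

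No member was called for sex chromosome complement in liver or fat, where limma called 0.186% and 0.137% of probes, and 472 and 1350 probes had an unadjusted p under 0.05. The differences of XX from XY groups were -0.02 to 0.30 in liver, with Hsd3b5 the highest (0.30 ± 0.29, SE) and Hsd11b1 the lowest. Liver XY-Sry T array 5, with X and Y transcripts like those of XX arrays, is counted as XY in these comparisons. With it or any other 1 of the 60 liver arrays left out, 0 members were called for sex chromosomes or their interactions with hormone. No probe was called for an interaction of either hormone with sex chromosomes in either tissue, with 180 probes at an unadjusted p under 0.05 for testosterone and 326 for estradiol in liver, and 1037 and 1163 in fat. Within single genotypes, testosterone called 5 members in XX, 5 in XY-, 5 in XXSry and 3 in XY-Sry livers (2.51%, 2.01%, 3.42% and 1.76% of probes). Estradiol called 1, 0, 2 and 1 (2.68%, 0.0177%, 0.309% and 0.504%). Whether these counts differ between genotypes was not tested.

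In inguinal fat, Hsd11b1 and Cyp7b1 were the members that changed. Testosterone called 1 of 5 tested members, Hsd11b1 upward (4.75% of probes, 2.16% upward and 2.59% downward), and estradiol called 2 of 5, Hsd11b1 downward and Cyp7b1 upward (20.5%, 10.4% upward and 10.1% downward). The median difference over these 5 was 0.33 for testosterone and 0.03 for estradiol, beside -0.02 for each over all probes. The testosterone median is the value of Hsd17b2, which was 0.05 without XY-Sry T array 1. The same 2 differed between the hormones (17.3%). These counts do not speak for all 8 members. Hsd17b2 passed the detection filter only through 3 arrays (XX T 4, XXSry B 1 and XY-Sry T 1), in which Alb and 8 to 10 of 10 hepatocyte markers were also detected.

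**Figure D4:**
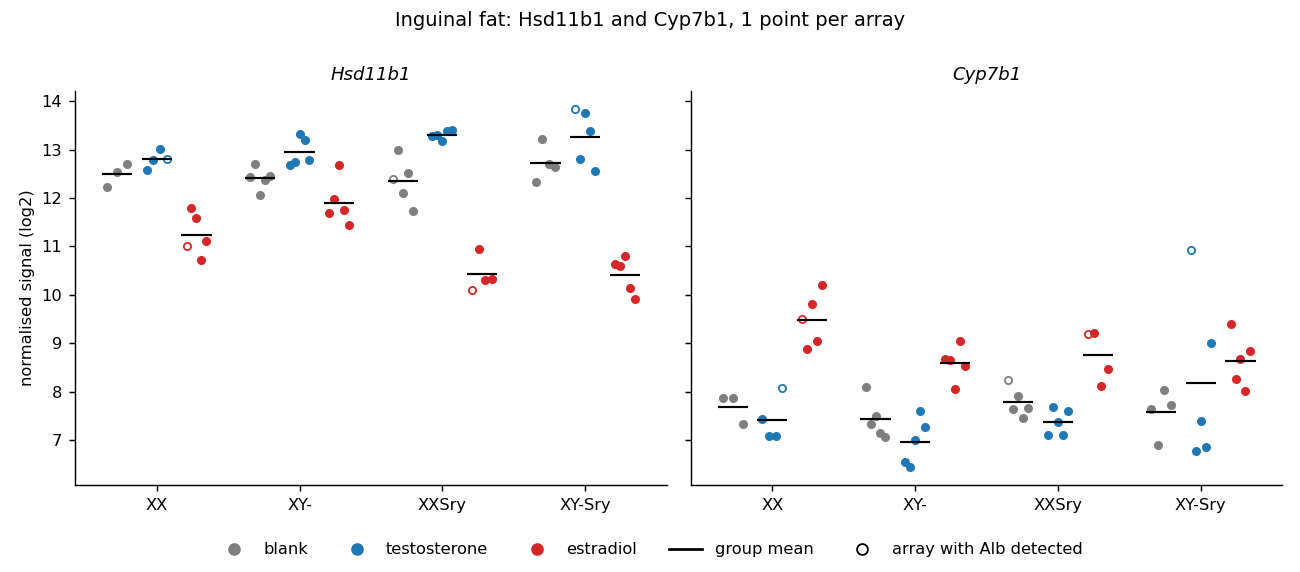
Normalised signal (log2, y axis) of Hsd11b1 and Cyp7b1 in inguinal fat, 1 point per array, over the 4 genotypes and 3 capsules, with group means as lines and open points for arrays with Alb detected. Hsd11b1 in estradiol arrays with Sry sits between 9.92 and 10.95, below every blank array.

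Hsd11b1 in fat lay at 11.72, 12.45 and 13.21 (lowest, median, highest) in 17 blank arrays, 12.55, 13.18 and 13.83 in 19 testosterone arrays and 9.92, 10.95 and 12.67 in 19 estradiol arrays. Estradiol arrays were mostly below the blank range and testosterone arrays in its upper part and above it. Estradiol lowered Hsd11b1 by 1.49 ± 0.13 (SE), or 2.81-fold (limma adjusted p = 7.21e-13), and testosterone raised it by 0.59 ± 0.13 (SE), or 1.5-fold (0.00244). Both had the same sign in 4 of 4 genotypes. Its other 2 bright probes gave -1.45 and -1.46 for estradiol and 0.67 and 0.70 for testosterone, all called, while the fourth, detected in 3 of 55 arrays, gave -0.01 and -0.05. Within the 2 slides that held both capsules the estradiol difference was -1.66 and -0.96 and the testosterone difference 0.51 and 0.56.

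The estradiol response of Hsd11b1 in fat differed by gonad type. It was -1.24 in XX (limma adjusted p = 0.00248), -0.50 in XY- (0.27), -1.92 in XXSry (4.33e-07) and -2.30 in XY-Sry (5.27e-09). The interaction was -1.24 ± 0.25 (SE, adjusted p = 0.00238) in a comparison that called 0.813% of probes, and -1.27 and -1.31 with the other 2 bright probes. Without XX E array 1, whose label fields disagree, it was -1.27 (adjusted p = 0.00257). Under estradiol the arrays with Sry lay at 9.92 to 10.95 and those without at 10.73 to 12.67, a difference of -1.15 ± 0.17 (SE, adjusted p = 1.78e-06), where 4.4% of probes were called. Under blank and testosterone no member was called for gonad type (1.8% and 3.42% of probes, with 992 and 1809 at an unadjusted p under 0.05), nor over all capsules (7.34%, with 2593), nor in the interaction of testosterone with gonad type (0.0137%, with 623).

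Ordered by mean, Hsd11b1 in fat ran from XY-Sry E (10.42 ± 0.37, SD, n = 5, and 3 to 5 arrays in each other group), XXSry E (10.42 ± 0.37), XX E (11.24 ± 0.43) and XY- E (11.90 ± 0.47) through XXSry B (12.35 ± 0.47), XY- B (12.40 ± 0.23), XX B (12.49 ± 0.24) and XY-Sry B (12.72 ± 0.36) to XX T (12.79 ± 0.17), XY- T (12.95 ± 0.29), XY-Sry T (13.27 ± 0.57) and XXSry T (13.30 ± 0.09). The 4 estradiol groups came lowest and the 4 testosterone groups highest, and each group overlapped its neighbours. Within genotypes estradiol called 2, 0, 1 and 1 members in XX, XY-, XXSry and XY-Sry fat (8.26%, 3.68%, 4.1% and 2.84% of probes). Testosterone called Hsd11b1 in XXSry (0.96, limma adjusted p = 0.0283) and no member in XX, XY- or XY-Sry (0.745%, 0.116%, 0.171% and 0.212%), and that call was lost when any 1 of 7 arrays was left out.

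Markers of other cells moved with these groups. The summed level of mammary epithelium markers under estradiol was 13.7 to 14.7 without Sry and 8.66 to 12.3 with Sry, and under blank 12.1 to 14.1 and 8.84 to 11.3. Adipocyte markers under estradiol summed to 15.9 to 16.5 without Sry and 16.3 to 16.7 with Sry, and macrophage markers to 12.1 to 14.5 in blank and 13.5 to 15.1 in estradiol arrays. Skeletal muscle markers had a median sum of 16.8 in blank (12.8 to 17.5), 17.0 in testosterone (12.3 to 17.6) and 14.6 in estradiol arrays (10.3 to 17.4). Lymph node markers had 12.9 (9.33 to 15.6), 10.3 (8.97 to 15.2) and 14.2 (8.84 to 15.6). All genes with a probe in these lists were detected in at least 1 array, save 2 of 11 mammary markers. Their part in the Hsd11b1 and Cyp7b1 results was not tested.

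Cyp7b1 in fat lay at 6.90, 7.65 and 8.25 in blank, 6.45, 7.28 and 10.93 in testosterone and 8.02, 8.84 and 10.21 in estradiol arrays. Blank and estradiol ranges overlapped narrowly, and the testosterone array at 10.93 is XY-Sry T array 1, without which the highest is 8.996. Estradiol raised Cyp7b1 by 1.25 ± 0.23 (SE), or 2.38-fold (limma adjusted p = 3.83e-05), with the same sign in 4 of 4 genotypes, and by 1.80 in XX (adjusted p = 0.0155). In XY-, XXSry and XY-Sry the values were 1.17, 0.96 and 1.06, not called. The XX call was lost without XX B array 1 or 3, and the XY- value passed without XY-Sry T array 1 (adjusted p = 0.0203). The testosterone difference was -0.13 ± 0.23 (SE, adjusted p = 0.788), and -0.30 without XY-Sry T array 1 (0.341). In liver the same gene was called for testosterone and not for estradiol, and Hsd11b1 was called downward for testosterone in liver and upward in fat. The tissues were normalised and fitted apart and the difference between them was not tested.

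The other members were near or below detection in fat. Srd5a1 was detected in 5 of 55 arrays, Cyp17a1 in 5, Hsd17b2 in 3, Hsd3b5 in 2, Akr1c6 in 1 and Akr1d1 in 0. XY-Sry T array 1, which had an Alb level of 10.997, held the highest levels of Cyp17a1 (8.20), Hsd17b2 (10.35), Akr1c6 (8.17), Srd5a1 (7.53) and Hsd3b5 (6.87). The testosterone difference of Srd5a1 in fat was 0.44 ± 0.18 (SE, limma adjusted p = 0.15), and 0.32 without XY-Sry T array 1. Srd5a1 was detected in 0 arrays of each blank group, so it passed the detection filter only through arrays under hormone.

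The counts of other genes of steroid metabolism in liver stand beside the 19.1% of all probes called for testosterone and the 6.82% for estradiol. Testosterone raised 1 of 3 tested 3-beta-hydroxysteroid dehydrogenases (Hsd3b4, 1.25, detected in 0 of 20 blank and 14 of 20 testosterone arrays, at least 1.21-fold higher, list median 0.18). Against blank, only the testosterone arrays let Hsd3b4 pass the detection filter, so its call is no independent support for a response. Testosterone raised 4 and lowered 3 of 10 tested genes in a list of 11- and 17-beta-hydroxysteroid dehydrogenases and related genes. That list also holds Rdh genes and H6pd, a cofactor supplier that is 1 of the 4 raised. Hsd17b12 was at 0.69 (limma adjusted p = 0.0055), Rdh5 at -0.53 (0.000276) and Rdh16, listed as Rdh6, at -0.74 (0.000994), with a list median of 0.14. Estradiol raised Hsd17b7 (0.43, 0.042) and lowered Rdh16 (-0.62, 0.014). Of 6 further reductases testosterone lowered 1, Akr1b7 (-0.92, adjusted p = 0.00183; detected in 12 of 20 blank and 1 of 20 testosterone arrays), and estradiol lowered 3, among them Akr1c14 (-0.59, 0.0167), with a list median of -0.08 for both hormones. Testosterone lowered 2 of 4 tested synthesis cytochromes and helpers, Fdxr and Por, the electron donors of mitochondrial and microsomal cytochromes, by -0.34 and -0.31, and estradiol lowered Fdxr by -0.55 (4.96e-08).

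The shares of 19.1% and 6.82% are also the background for sterol hydroxylases and conjugating enzymes in liver. Testosterone raised 1 of 5 sterol hydroxylases, Cyp8b1 of bile acid synthesis (1.003, limma adjusted p = 0.000292), and estradiol raised 1, Cyp51 of cholesterol synthesis (0.68, 0.01). Of 6 tested conjugation genes testosterone raised 3, with the glucuronosyltransferases Ugt2b1, listed as 1300012D20Rik, at 1.33 (adjusted p = 1.29e-08) and Ugt2b35 at 0.69 (0.000133) and a list median of 0.38. It lowered 1, the sulfotransferase Sult3a1 (-1.59, adjusted p = 1.8e-10), which was detected in 10 of 20 blank and 0 of 20 testosterone arrays and so was at least 1.48-fold lower, while estradiol raised Sult3a1 by 0.77 (0.0025). The estrogen receptor gene Esr1 fell under testosterone, with -1.22 (adjusted p = 5.71e-10).

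In fat the shares over all probes were 4.75% for testosterone and 20.5% for estradiol. Testosterone lowered 1 of 6 reductases, Akr1c18 (-1.36, limma adjusted p = 0.0056), a progesterone-inactivating enzyme. Estradiol raised 3 of 6 reductases, among them Akr1cl, listed as 4921521F21Rik, from 6.39 ± 1.10 (SD, n = 17) in blank to 12.8 ± 0.51 (SD, n = 19) in estradiol arrays (difference 6.29 ± 0.27, SE, adjusted p = 2.7e-23). Another of the 3, Akr1c14, was detected in 0 of 17 blank and 5 of 19 estradiol arrays, and no bound could be set. Against blank, Akr1c14 passed the detection filter only through estradiol arrays, so its call is no independent support for a response. Estradiol raised 1 and lowered 3 of 10 genes in the list of hydroxysteroid dehydrogenases and related genes, H6pd among the lowered. Hsd11b2, which inactivates glucocorticoid, was at 1.09 (adjusted p = 5.09e-10) and Rdh5 at -0.77 (4.46e-05). Hsd11b2 was detected in 0 of 17 blank and 9 of 19 estradiol arrays, so it was at least 1.01-fold higher. Against blank, only the estradiol arrays let Hsd11b2 pass the detection filter, so its call is no independent support for a response. H6pd, which supplies the cofactor of the Hsd11b1 enzyme, fell by 0.35 under estradiol (adjusted p = 0.00809). In liver H6pd went the other way from Hsd11b1: it was called upward for testosterone, from a mean of 11.51 in blank to 11.90 in testosterone arrays. The synthesis cytochrome donor Por fell by 0.62 (3.61e-05), and Cyp27a1, a sterol hydroxylase of bile acid synthesis, rose by 0.57 (0.00413).

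The tested genes closest to a member over the 12 liver group means, by Pearson r and as a description over groups normalised together, were As3mt (0.96), Tmem9b (0.956) and C730036D15Rik (0.948) for Cyp17a1. For Cyp7b1 they were Tuft1 (0.953), Ubap1 (0.947) and Rnf3 (0.937). For Hsd3b5 they were 1110057K04Rik (0.977), Slco1a1 (0.976), an organic anion transporter, and Serpina4-ps1 (0.972). Slco1a1 was also the closest to Srd5a1 (0.981), ahead of Hao1 (0.975) and Mup5 (0.966), a major urinary protein. Akr1c6 had Cyc1 (0.956), Ncoa1 (0.951) and Apbb2 (0.937), and Akr1d1 had Tk1 (0.956), Dpp4 (0.936) and Sqrdl (0.926). Akr1c6 reached the span of 1 (1.05) through its XX E mean of 8.17, which holds array 1 at 6.17. Its next lowest group mean was 8.78, in XY- E. Its correlations therefore lean on that array and were not computed without it. The XY- E mean of every gene holds array 5, which goes against its label (12.26 in Hsd3b5 and 12.52 in Cyp7b1). No correlation was computed without array 5 either. Probes of close family members, such as the Hsd3b and Akr1c genes, can hold signal of more than 1 gene, which was not tested.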

How the data were processed

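Liver and fat RNA of gonadectomised FCG mice was measured on Illumina BeadChips. Per the file headers, the authors deposited an intensity (the mean bead signal, not on a log scale) and, beside it, 1 detection p-value per probe and array. Their 115 columns of bead standard error (a signal unit in the deposited headers) were not used. The submitters' processing notes name lumi, and other steps before deposit are not given in the sources used here.

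Each tissue was processed apart in limma 3.58.1 (R 4.3.3; figures in Python 3.11.15 with matplotlib 3.10.9): normexp background correction from the detection p-values, 16 added, quantile normalisation, log2. Probes detected (p under 0.01) in 5 or more liver or 3 or more fat arrays were tested, which left 11317 and 14636 of 25697 probes. One mean per group was fitted (lmFit, eBayes), 20 contrasts per tissue were drawn with genotypes weighted equally, and p-values were adjusted by Benjamini-Hochberg over all tested probes of a contrast; a probe is called under 0.05. The fit was tested on simulated data. The number of arrays limits the precision.

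Groups come from the labels. Array numbers within a group are names without order. The members and gene lists were chosen with earlier results of these data known. A member with several probes is described by its brightest probe. From each other list the text names the called genes with the greatest difference, up to 2 each way per hormone, and for each member spanning at least 1 over the liver group means the 3 genes of highest correlation. Esr1 and H6pd fall outside this rule and were named after their values were seen. A bound ("at least") sets the brighter group's mean against the dim group's detection floor. The slides follow the array labels: hormone values were also computed with slide as a block and within slides, since no slide holds all capsules. Values within slides are plain differences of means over the arrays present and are not matched for genotype. Other alternatives were no background correction, median centring, another offset, other filters, array weights, a mean-variance trend and leaving out arrays; leaving out both liver arrays that go against their labels, or the fat arrays with Alb detected, was chosen after seeing the data. Sequences are from RefSeq, GRCm38.p6; those of the array probes were not used here, and no coordinates come from the files.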

Additional observations from a re-analysis of the deposited data

Results flagged for a closer look

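The responses of 2 genes differed between gonad types by an interaction test in limma. In liver, the testosterone response of Cyp17a1 differed by 2.60 between animals with and without Sry (adjusted p = 0.00602). In fat, the estradiol response of Hsd11b1 differed by -1.24 (adjusted p = 0.00238).

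Single arrays also lay far from the others of their group, by the gap to the nearest array relative to the range of the group (Dixon's critical value). The critical value is set to be met by chance in about 1 of 20 groups, and it was met 18 times in 132 groups. Only groups with at least 1 detected array were checked. In the 8 fat cases the outlying array was the 1 detected array, and so itself admitted the group. The same arrays also recur over genes, so these counts cannot be set against the rate of 1 in 20. In fat, XY-Sry T array 1 was high for Akr1c6 (8.17, others 4.597 to 4.71), Cyp17a1 (8.20, others 4.48 to 4.92), Hsd17b2 (10.35, others 4.54 to 4.99) and Hsd3b5 (6.87, others 4.73 to 5.24). XX T array 4 was high in fat for Cyp17a1 (6.63) and Hsd17b2 (6.73), as was XXSry B array 1 (6.55 for Cyp17a1 and 6.80 for Hsd17b2). These 3 arrays are among the 5 fat arrays in which Alb was detected.

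In liver, XX E array 1 was high for Cyp17a1 (13.21, others 11.43 to 11.76) and low for Hsd17b2 (9.15, others 10.71 to 11.31). XY- E array 5, which goes against its label, was high for Cyp7b1 (12.52, others 10.65 to 11.15). XY- B array 5 was low for Cyp7b1 (10.29), and XY- B array 2 was low for Hsd11b1 (14.08) and high for Hsd3b5 (6.88). XX B array 2 (9.93) and XY-Sry T array 1 (9.80) were low for Hsd17b2, XX E array 4 was high for Hsd3b5 (7.14) and XX T array 1 was low for Srd5a1 (9.14).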

How the results depend on the processing

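No member's difference turned its sign past the threshold under any alternative run. Of 864 liver values under 9 other settings 848 kept their side of the threshold, 13 newly passed and 3 no longer did: Hsd11b1 and Akr1d1 between the hormones (median centring, -0.20 and -0.30, adjusted p = 0.131 and 0.122) and Hsd3b5 under estradiol (slide block, 0.54, 0.451). In fat 563 of 564 kept theirs. Members called for estradiol in liver went from 2 to 4 under median centring and 1 with the slide block. Members called for its interaction with gonad type went from 0 to 1 with the slide block, 1 with array weights and 2 without both arrays that go against their labels, and for gonad type under testosterone from 0 to 1 under each of these 3. In fat, testosterone calls within genotypes (Hsd11b1 in XXSry) went from 1 to 0 under median centring, with the array of conflicting labels taken as testosterone, and without the arrays with Alb detected, and testosterone calls went from 1 to 2 with array weights (Srd5a1, 0.49, adjusted p = 0.041). Srd5a1 was detected in 5 of 55 fat arrays and in 0 of each blank group. The filter admitted it only through hormone arrays, so that call is no support for a response. Leaving out single arrays gave 2 to 3 members for estradiol in liver, 2 to 3 for gonad type, 2 to 3 for gonad type under estradiol, 0 to 1 under testosterone, 0 to 1 for the estradiol interaction, 16 to 19 testosterone calls and 3 to 5 estradiol calls within liver genotypes, and 0 to 1 and 3 to 5 within fat genotypes. Causes were not tested.

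Median centring moved the share of called liver probes that were higher from 42.8% to 16.5% for testosterone, from 52.1% to 8.55% for estradiol and from 42.3% to 53.3% between the hormones, and in fat from 44.8% to 32.2% between the hormones and from 35.8% to 23.4% for gonad type. It changed all calls in liver from 2162 to 1370 for testosterone, 772 to 1392 for estradiol and 2080 to 1183 between them, and in fat from 695 to 306, 3003 to 1936 and 2536 to 1630. In fat, testosterone calls were 256 with the slide block and 1064 with array weights. No paired analysis was possible because the labels carry no replicate numbers; slide was the block used. The members near detection (Akr1d1, Hsd3b5 under blank, and most members in fat) carry understated differences.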

Other observations

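Genes in a list of liver regulators of sex-biased expression, growth hormone axis genes and related genes also moved with testosterone. Of its 11 tested genes 1 rose and 5 fell under testosterone, and 1 rose under estradiol (limma). These counts stand beside 19.1% and 6.82% of all probes called, so the estradiol count is near the share over all probes. The genes below are these 7 calls, named after their values were seen. Cux2, a female-biased repressor, was at 8.11 ± 0.56 (SD, n = 20) in blank arrays and was detected in 0 of 20 testosterone arrays, so it was at least 5.82-fold lower there. Bcl6, a male-biased repressor, was at 8.75 ± 0.94 in blank and 9.87 ± 0.94 in testosterone arrays. The prolactin receptor gene Prlr was at 11.06 ± 0.19 and 8.91 ± 0.39, Igf1 at 13.13 ± 0.25 and 12.84 ± 0.18, Socs2 at 9.53 ± 0.53 and 8.70 ± 0.67, and Cish at 9.80 ± 0.85 and 8.91 ± 1.41 (SD, n = 20 each). Stat5a was the gene that rose under estradiol, from 6.64 ± 0.38 to 7.03 ± 0.48.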
